A study of Mus musculus with 12 samples.

Results

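The question was what BMP4 still did to the transcriptome of PYMT cells when TGFB2 was present. The comparison took the 3 libraries of cells that received both ligands (BMP4-TGFB2) against the 3 libraries of cells that received TGFB2 alone, 6 of the 12 libraries in the series, across all expressed genes and with the replicate number as a block. PYMT, the labelled mouse line, carries the name of a breast cancer model in which the middle T antigen of polyoma virus drives mammary tumours, and it was cultured in matrigel. TGFB2 and BMP4 were each used at 5 ng/mL for 3 days. The medium was then replaced, and RNA was taken 2 days after that. The series asked how the ligands, singly or jointly, set up programs linked to dormancy, in which tumour cells stop dividing for long periods. The other 6 libraries were untreated cells (NT) and cells given BMP4 alone, which served here as a second background for the effect of BMP4. No label names a genotype beyond the line, and none says what made the replicates biological, so the p-values describe scatter among these 12 cultures and nothing wider.

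BMP4 and TGFB2 belong to the same superfamily of secreted dimeric ligands and signal through pairs of type I and type II receptor kinases. BMP4 acts mainly through ACVR1, BMPR1A and BMPR1B to phosphorylate SMAD1, SMAD5 and SMAD9, whereas TGFB2 acts through TGFBR2 and TGFBR1 to phosphorylate SMAD2 and SMAD3. Both branches share SMAD4, and both induce inhibitory SMADs that feed back on the receptors. Known direct targets of the BMP branch include the Id genes, which encode inhibitors of basic helix-loop-helix factors.

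Promoters of Id2, Id3, Smad6 and Wnt11, from RefSeq on GRCm38.p6, show the kind of DNA at starts of genes the results turn on. Each runs from 250 bases before to 50 bases after an annotated start and is read 5′ to 3′ on the gene's strand. The Id2 and Id3 windows lie inside the spans that GENCODE gives these genes, so they do not precede its starts. Capitals mark each GGCGCC and each GTCT or its reverse complement AGAC, the short motifs bound by SMAD proteins. The Id2 window is chr12:25096043-25096342 on the minus strand, that of Id3 is chr4:136143572-136143871 on the plus strand, that of Smad6 is chr9:64022010-64022309 on the minus strand, and that of Wnt11, the first of 2 listed starts, is chr7:98834862-98835161 on the plus strand.
Id2: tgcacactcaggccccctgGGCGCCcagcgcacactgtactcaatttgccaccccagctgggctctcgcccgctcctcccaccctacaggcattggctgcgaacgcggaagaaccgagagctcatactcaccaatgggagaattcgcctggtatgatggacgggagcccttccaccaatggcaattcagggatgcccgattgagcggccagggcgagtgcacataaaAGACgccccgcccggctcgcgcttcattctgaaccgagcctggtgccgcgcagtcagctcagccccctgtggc
Id3: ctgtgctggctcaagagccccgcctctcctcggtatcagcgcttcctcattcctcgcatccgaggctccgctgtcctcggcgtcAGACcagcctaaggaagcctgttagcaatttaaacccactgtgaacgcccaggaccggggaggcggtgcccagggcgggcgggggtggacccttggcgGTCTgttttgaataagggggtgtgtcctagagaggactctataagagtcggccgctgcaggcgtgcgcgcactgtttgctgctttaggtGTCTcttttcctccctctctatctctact
Smad6: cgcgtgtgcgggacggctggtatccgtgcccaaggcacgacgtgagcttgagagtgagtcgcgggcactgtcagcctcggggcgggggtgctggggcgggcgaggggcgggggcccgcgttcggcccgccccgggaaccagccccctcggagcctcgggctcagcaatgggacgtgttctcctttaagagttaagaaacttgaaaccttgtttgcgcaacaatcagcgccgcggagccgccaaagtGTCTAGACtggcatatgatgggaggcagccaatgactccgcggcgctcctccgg
Wnt11: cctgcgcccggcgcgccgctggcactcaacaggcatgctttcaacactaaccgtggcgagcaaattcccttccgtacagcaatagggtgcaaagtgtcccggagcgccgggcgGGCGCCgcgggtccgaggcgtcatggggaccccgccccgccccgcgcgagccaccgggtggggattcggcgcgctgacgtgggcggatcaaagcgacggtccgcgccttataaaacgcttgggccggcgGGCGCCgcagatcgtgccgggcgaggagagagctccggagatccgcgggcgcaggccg
The Id2 window held 1 GGCGCC and 1 GTCT, that of Wnt11 held 2 GGCGCC and no GTCT, and those of Id3 and Smad6 held 3 and 2 matches to GTCT on either strand. In Smad6 the matches abut as GTCTAGAC. Over 27025 promoters of the same length, 1 per gene, 12% held GGCGCC and 88% held GTCT on either strand. GGCGCC was in 21% of the 11043 tested genes with a listed promoter. It was in 31.7% of 183 promoters of genes that rose in the fit of the 6 libraries described below and in 19.9% of 191 promoters of genes that fell. The longer BMP element, GGCGNC followed after 5 bases by GTCT, was in 0.259% of all promoters and in 0 of 16 promoters of the BMP target list. These matches describe letters in a window and say nothing about binding.

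Adding BMP4 to TGFB2 changed few genes against the spread of the whole experiment and more against the spread of the same-numbered pairs. With all 12 libraries in a single edgeR quasi-likelihood model with the replicate number as a block (the 12-library fit), 2 of 15319 genes rose (0.0131%) and 4 fell (0.0261%) with a threshold of 0.05 on the Benjamini-Hochberg adjusted p, and 1056 genes had an unadjusted p under 0.05. With only the 6 libraries compared, as 3 pairs (the 3-pair fit), 249 of 14253 genes rose (1.75%) and 251 fell (1.76%). Of those, 53 rises and 52 falls were of at least 1 on the log2 scale. The 3 libraries of BMP4-TGFB2 did not overlap the 3 of TGFB2 for 108 of the rises and 99 of the falls. These genes were called on the same libraries, so the lack of overlap is no further test of them. The share without overlap over all genes is not given here. Irrespective of any test, 18.3% of the 15319 genes were higher with BMP4-TGFB2 in all 3 pairs and 18.8% were lower in all 3. The common biological coefficient of variation was 0.196 in the 12-library fit with 6 residual degrees of freedom and 0.112 in the 3-pair fit with 2. The 3-pair count rested in part on the replicate 1 libraries, since it was 143 without that pair, 354 without pair 2 and 733 without pair 3. Of the 500 calls, 135, 293 and 432 were kept in those fits. A principal component analysis of the 6 libraries placed the replicate numbers along the first component, with 37% of the variance, and the treatments along the third, with 18.3%, where TGFB2 libraries scored 9.59 to 38.4 and BMP4-TGFB2 libraries -43.9 to -15.3.

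The genes past the threshold in the 12-library fit were Id2 and Wnt11, which rose, and Muc20, Slc15a2, Spp1 and Crispld2, which fell. Id2 (chr12:25093799-25097140, GRCm38) encodes an inhibitor of basic helix-loop-helix transcription factors. Its level in CPM, counts scaled to TMM-adjusted library sizes, was 140, 150 and 111 in TGFB2 replicates 1 to 3 and 316, 290 and 228 in BMP4-TGFB2 replicates 1 to 3. Every BMP4-TGFB2 library lay above every TGFB2 library, and the log2 fold change was 1.05 ± 0.108 (SE) with an adjusted p of 0.0096. Untreated cells held 309 CPM ± 8.6 (SD, n = 3), so the level with both ligands, 278 ± 45.4, was near that of untreated cells, whereas TGFB2 alone gave 134 ± 20.2. Wnt11 (chr7:98835112-98855195) encodes a secreted ligand of the non-canonical Wnt pathway. It stood at 0.497, 0.802 and 1.08 CPM with TGFB2 and at 4.61, 7.03 and 6.84 CPM with both ligands. Here too the groups did not overlap, and the log2 fold change was 3.01 ± 0.32 (adjusted p = 0.0101). With BMP4 alone Wnt11 reached 14.5 CPM ± 4.21 from 0.29 ± 0.243 in untreated cells.

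The 4 falls were also seen in every pair, and in each gene the BMP4-TGFB2 libraries lay below all TGFB2 libraries. Muc20 (chr16:32777419-32797435) encodes a cell-surface mucin. It went from 23.2, 36.2 and 25.4 CPM with TGFB2 to 7.06, 12.3 and 8.02 CPM with both, a log2 fold change of -1.64 ± 0.118 (adjusted p = 0.0005). Untreated cells had 147 CPM ± 21.8 and cells given BMP4 alone 34.1 ± 6.77, so the level with both ligands was the lowest of the 4 groups. Slc15a2 (chr16:36750177-36784962) encodes a proton-coupled peptide transporter. Its values were 38.5, 33 and 26.2 CPM with TGFB2 and 14.5, 11 and 7.26 CPM with both (log2 fold change -1.61 ± 0.115, adjusted p = 0.0005). With BMP4 alone it was 9.98 CPM ± 1.81 against 24.9 ± 5.46 in untreated cells, a log2 fold change of -1.31 ± 0.11, and the difference between the backgrounds did not pass the test (interaction -0.30, adjusted p = 0.40). Spp1 (chr5:104435118-104441050) encodes osteopontin, a secreted phosphoprotein that binds integrins and CD44. It was the most abundant of the 6 on the length-scaled scale, at 1380 TPM ± 409, the deposited transcript measure, with TGFB2 and 540 ± 190 with both.

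In CPM, Spp1 was 1010, 1500 and 874 with TGFB2 and 327, 587 and 417 with both, a log2 fold change of -1.36 ± 0.154 (adjusted p = 0.0139). Crispld2 (chr8:119992438-120052793), which encodes a secreted protein with cysteine-rich and LCCL domains, went from 6.15, 10.8 and 7.21 to 2.35, 4.01 and 3.04 CPM (adjusted p = 0.0382). Both are secreted products, and in both the lowest TGFB2 library exceeded the highest BMP4-TGFB2 library. The 2 genes with the smallest adjusted p, Muc20 and Slc15a2, stayed past the threshold with any 1 of the 6 libraries left out. Id2 stayed past it in 2 of those 6 fits and reached an adjusted p of 0.11 without TGFB2 replicate 3. Wnt11 and Spp1 stayed past it in 1 of 6, with adjusted p up to 0.11 without TGFB2 replicate 3 for Wnt11 and 0.131 without TGFB2 replicate 2 for Spp1. Crispld2 passed in 0 of 6, with adjusted p from 0.0807 without TGFB2 replicate 1 to 0.263 without BMP4-TGFB2 replicate 2. All 6 genes also passed in the 3-pair fit.

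**Figure D1:**
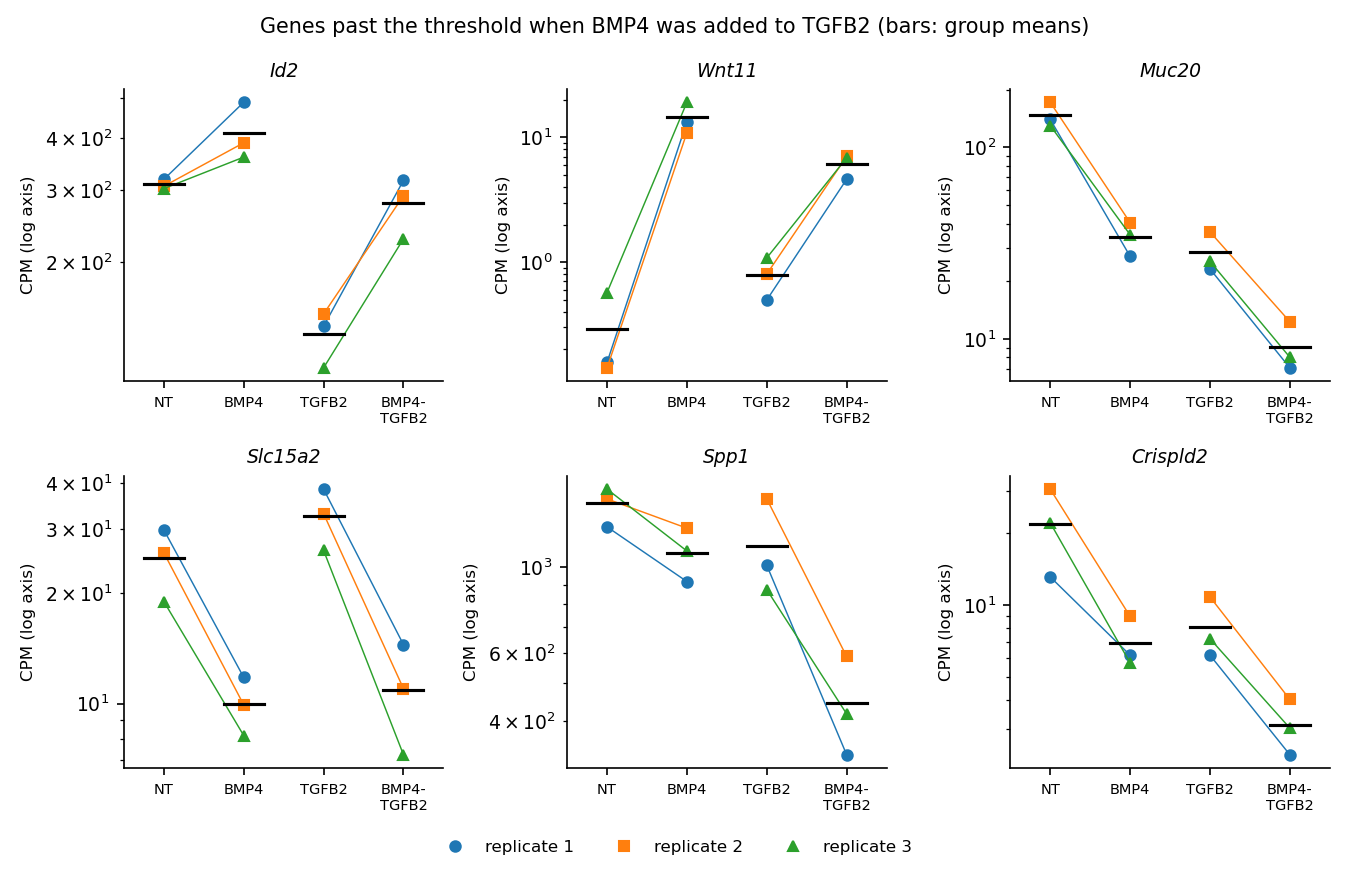
CPM (log axis) of the 6 genes that passed in the 12-library fit, in all 4 groups. Points are libraries, lines join same-numbered libraries of NT and BMP4 or of TGFB2 and BMP4-TGFB2, and bars are group means; with TGFB2 present, every line rises for Id2 and Wnt11 and falls for Muc20, Slc15a2, Spp1 and Crispld2.

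Targets of SMAD1 and SMAD5 were the list most often higher when BMP4 joined TGFB2. Of 24 tested members, 1 rose and 0 fell in the 12-library fit. Of the 23 tested in the 3-pair fit 10 rose and 0 fell, against 1.75% and 1.76% of all genes. The median log2 fold change over the 24 was 0.841, against -0.000574 over all genes tested. In all, 17 of the 24 were higher in all 3 pairs and 1, Zfp503, was lower in all 3 (18.3% and 18.8% of all genes). The mean log2 CPM over the list was higher by 0.969, 0.769 and 0.621 in pairs 1 to 3, and the groups did not overlap on it. Without pair 1, 6 of the 10 were kept.

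Among the inhibitors of basic helix-loop-helix factors, Id1 and Id3 moved with Id2 in the 3-pair fit. Id1 was 231, 293 and 231 CPM with TGFB2 and 405, 369 and 329 CPM with both (log2 fold change 0.55 ± 0.0901, adjusted p = 0.012). Id3 was 88.7, 188 and 140 CPM with TGFB2 and 247, 297 and 252 CPM with both (0.99 ± 0.133, adjusted p = 0.004). Neither gene's groups overlapped, although neither passed in the 12-library fit (adjusted p = 0.37 for Id1 and 0.23 for Id3), and Id1 did not pass without pair 1 (adjusted p = 0.129). Id4, at 1.32 to 1.44 CPM with TGFB2 and 1.8 to 3.52 with both, did not pass in either fit. On the length-scaled scale Id1 was the highest of the 3 called Id genes with both ligands, at 724 TPM ± 75.3, and Id2 (378 ± 64.6) and Id3 (367 ± 59.7) did not differ beyond their spread.

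The inhibitory SMADs, which block receptor signalling, rose in the 3-pair fit. Smad6, the inhibitor with a preference for the BMP branch, was 26.4, 33 and 30 CPM with TGFB2 and 55.6, 69.8 and 48.6 CPM with both (0.95 ± 0.0935, adjusted p = 0.00085). Smad7, which acts on both branches, was 146, 128 and 157 CPM with TGFB2 and 200, 218 and 203 CPM with both (0.52 ± 0.0804, adjusted p = 0.0084). In both genes the lowest library with both ligands lay above the highest with TGFB2. Without pair 1 the adjusted p was 0.0138 for Smad6 and 0.0722 for Smad7. Bambi, a decoy receptor that lacks kinase activity, was 12.3, 10.7 and 5.82 CPM with TGFB2 and 21.7, 21.7 and 10.7 with both (0.90 ± 0.119, adjusted p = 0.0038). Its groups overlapped, with replicate 3 low in both. Smad9, the third receptor SMAD of the BMP branch, went from 0.71 to 1.12 CPM with TGFB2 to 1.93 to 3.2 CPM with both and missed the threshold in the 3-pair fit (1.41 ± 0.346, adjusted p = 0.063).

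The transcription factors of the list behaved unequally. Atoh8, a basic helix-loop-helix factor, was 2.79, 9.14 and 4.91 CPM with TGFB2 and 15.6, 21.6 and 12.7 with both (1.67 ± 0.23 in the 3-pair fit, adjusted p = 0.0046). Hey1, a repressor shared with the Notch pathway, was 4.28, 5.87 and 3.66 CPM with TGFB2 and 16.3, 18.8 and 9.29 with both (1.65 ± 0.158, adjusted p = 0.00071). Both sets of libraries were apart, and both genes passed without pair 1 (adjusted p = 0.0131 and 0.0112). Gata3, a luminal lineage factor, rose by less (0.50 ± 0.089, adjusted p = 0.017), and not past the threshold without pair 1 (adjusted p = 0.19). Members that BMP4 raised on its own but that did not pass here were Dlx1, Dlx2, Dlx3, Dlx5, Gata2, Smad9 and Runx2. The homeobox gene Dlx5, for example, averaged 15.4 CPM with BMP4 alone and reached 2.42 to 5.2 CPM with both ligands.

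**Figure D2:**
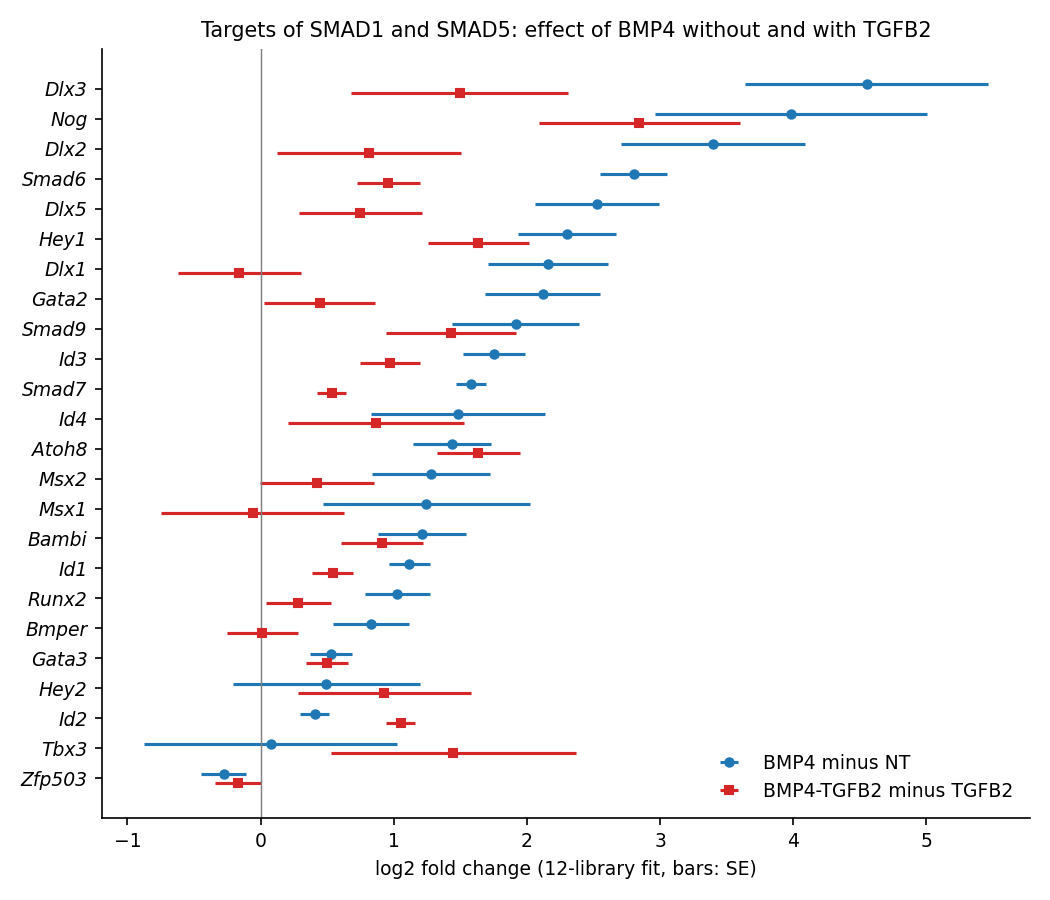
Log2 fold change (x axis, 12-library fit, bars SE) of the 24 tested targets of SMAD1 and SMAD5 for BMP4 against NT (circles) and for BMP4-TGFB2 against TGFB2 (squares). With TGFB2 present most squares sit to the right of 0 and left of the circle of the same gene. Exceptions include Id2, at 1.05 with TGFB2 and 0.41 without, and Atoh8, at 1.635 with TGFB2 and 1.438 without.

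Among the parts of the pathway that receive the signal, 1 gene passed, and only in the 3-pair fit. Of 14 receptors and co-receptors, 0 passed in the 12-library fit. In the 3-pair fit 0 rose and 1 fell (1.75% and 1.76% of all genes). That gene was Rgma, a BMP co-receptor, at 18.6, 23.1 and 16 CPM with TGFB2 and 12.4, 11.5 and 9.03 CPM with both (-0.81 ± 0.128, adjusted p = 0.0093, and 0.0376 without pair 1). The type I BMP receptors Bmpr1a and Acvr1 stood at 46.9 TPM ± 5.8 and 48.7 ± 10.5 with TGFB2 and at 48.4 ± 4.16 and 53.8 ± 5.43 with both, differences below their spread. The type II receptor Bmpr2 stood at 19.6 ± 3.38 and 20.6 ± 4.62 TPM. Tgfbr1 (40.5 ± 7.23 and 37.7 ± 5.95 TPM) and Tgfbr2 (32.6 ± 3.29 and 35.3 ± 5.89 TPM) also differed by less than their spread. Acvr2b went from 1.51, 1.76 and 2.3 CPM with TGFB2 to 2.9, 3.8 and 2.55 with both, without overlap. The groups of Neo1 also did not overlap, with both ligands higher (0.21 ± 0.0761). Those of Acvrl1 did not overlap in the other direction, from 3.79, 3.11 and 3.38 to 1.82, 2.67 and 2.88 CPM. None of these genes passed in either fit. Bmpr1b, at most 0.458 CPM in any library, was too low to test.

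Among 13 ligands of the superfamily 1 rose and 1 fell in the 3-pair fit (1.75% and 1.76% of all genes), and 0 were kept without pair 1. Inhba, which encodes the activin A subunit, was 191, 165 and 377 CPM with TGFB2 and 333, 397 and 514 CPM with both (0.83 ± 0.124, adjusted p = 0.0073), and Gdf15, a stress-induced ligand, fell (-0.65 ± 0.131, adjusted p = 0.028). The endogenous Bmp4 transcript was 6.58, 8.14 and 4.6 CPM with TGFB2 and 4.64, 5.84 and 3.6 with both, which did not pass (adjusted p = 0.22). With BMP4 alone the same transcript had risen by 1.95 ± 0.34 (adjusted p = 0.0041), and the difference between the backgrounds passed (-2.40, adjusted p = 0.037). Of 19 antagonists and latent TGFb binders, 3 rose and 1 fell in the 3-pair fit (1.75% and 1.76% of all genes). Without pair 1, 1 of the rises was kept. Nog, which encodes the BMP trap noggin, was 0.118, 0.385 and 0.249 CPM with TGFB2 and 1.71, 1.3 and 1.73 CPM with both (2.73 ± 0.575, adjusted p = 0.035). Nbl1, another BMP antagonist, rose (0.70 ± 0.08, adjusted p = 0.0019), as did the secreted protease Htra1 (0.37 ± 0.059, adjusted p = 0.01), and Fstl1, a follistatin-like protein, fell (-0.93 ± 0.141, adjusted p = 0.0081). Nog counts were low and it did not pass without pair 1 (adjusted p = 0.222).

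In the median, targets of SMAD2 and SMAD3, the TGFB2 branch, moved little on top of TGFB2. Of 34 tested members, 0 passed in the 12-library fit, where the median was 0.0421. Of the 33 tested in the 3-pair fit 4 rose and 0 fell (1.75% and 1.76% of all genes). The 4 were Ccn1, Klf10, Timp3 and Smad7, which is also on the list of targets of SMAD1 and SMAD5. Without pair 1, 1 of the 4 was kept. Klf10, a TGFb-inducible zinc finger repressor, was 108, 106 and 100 CPM with TGFB2 and 144, 157 and 130 CPM with both (0.45 ± 0.0654, adjusted p = 0.006). Pmepa1, a negative regulator of TGFb signalling, was 711, 785 and 749 CPM with TGFB2 and 703, 797 and 729 CPM with both. Skil, a SMAD corepressor, was 389, 420 and 407 CPM with TGFB2 and 396, 478 and 395 with both. The groups overlapped in Pmepa1 and in Skil, so no change was detected for them at this replication.

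Cells without TGFB2 gave a second measure of BMP4, from libraries outside the groups compared. The 12-library fit still drew its spread and replicate block from these libraries too. In BMP4 against NT, 1318 genes rose (8.6%) and 1038 fell (6.78%) in the 12-library fit. Their total of 2356 was 833 with no replicate block, and with 1 library left out it was 1413 without NT replicate 2 and 1317, 1541 and 1199 without BMP4 replicates 1, 2 and 3. Across all 15319 genes the mean pair differences in the 2 backgrounds had a Pearson r of 0.247 and a Spearman rho of 0.238, a description over genes that share libraries and depth. Genes that rose with BMP4 alone had a median of 0.871 there and of 0.143 on top of TGFB2, and 667 of the 1318 (50.6%) were higher in all 3 pairs. Genes that fell with BMP4 alone had a median of -0.677 there and of -0.12 on top of TGFB2. Of the 1038, 472 (45.5%) were lower in all 3 pairs. Both sets were picked by their effect without TGFB2, so part of the drop in the medians follows from the choice. How large that part is was not tested. In the other direction, 187 of the 249 genes that rose in the 3-pair fit (75.1%) had risen with BMP4 alone and 2 had fallen. Of the 251 that fell, 97 (38.6%) had fallen with BMP4 alone and 16 had risen.

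**Figure D3:**
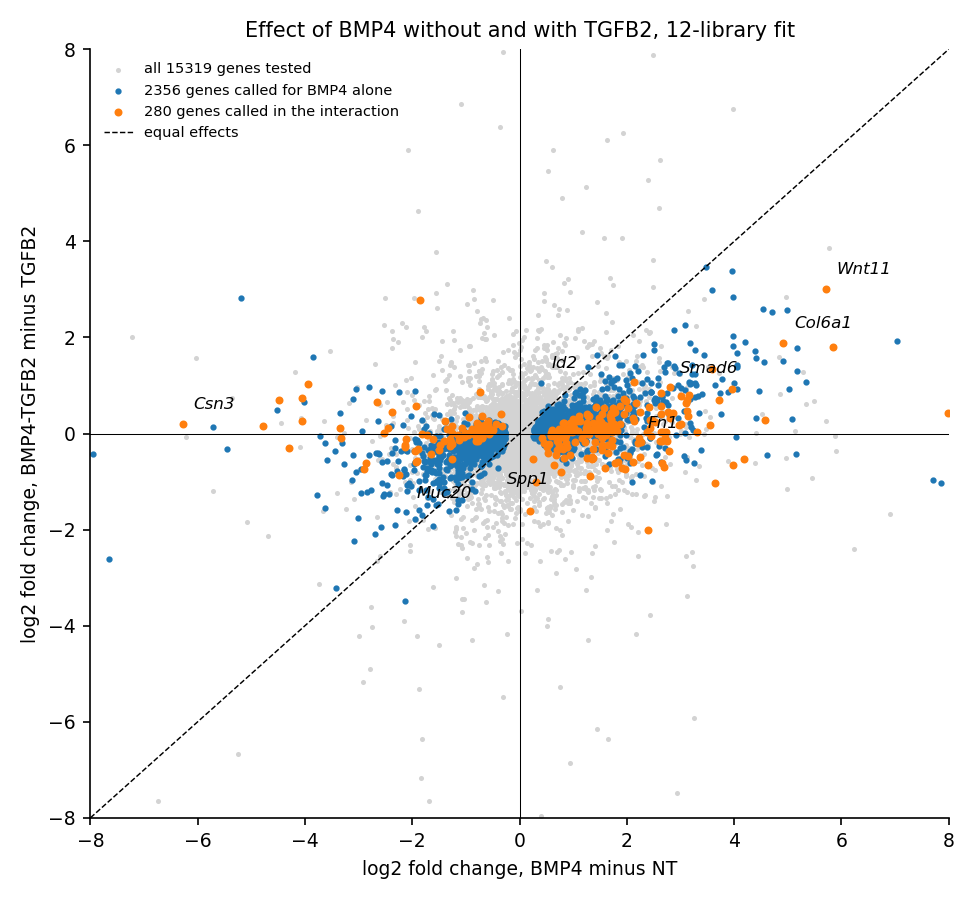
Log2 fold change of BMP4 against NT (x axis) and of BMP4-TGFB2 against TGFB2 (y axis) in the 12-library fit, 1 point per gene, with 13 genes beyond the axis limit of 8. Blue points are genes called for BMP4 alone, orange points those whose BMP4 effect differed between backgrounds, and most orange points lie near 0 on the y axis.

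The difference between the backgrounds was tested as an interaction, the log2 effect of BMP4 with TGFB2 minus that without it. It was higher for 90 genes (0.588%) and lower for 190 (1.24%). The total of 280 was 24 with no replicate block. With 1 library left out it was 349 without NT replicate 3, 447 without NT replicate 1 and between 61 (BMP4-TGFB2 replicate 3) and 141 (BMP4-TGFB2 replicate 2) without any of the other 10. Among genes with a mean log2 CPM of 2 or more over the 12 libraries, the 5 largest in each direction were, on the lower side, Ccn5, Slc16a12, Ctla2a, Sdc3 and Col6a1, and on the higher side, Csn3, Csn1s1, Pigr, Ccl28 and Gas7. Ccn5, a matricellular protein, rose by 3.98 ± 0.55 with BMP4 alone and had a fold change of -0.66 ± 0.48 on top of TGFB2. Csn3, which encodes kappa-casein, fell with BMP4 alone from 163 CPM to 2.13 CPM in the mean and was already at 0.568, 0.705 and 1.66 CPM with TGFB2 and at 0.552, 0.668 and 2.19 CPM with both. The milk protein gene Csn1s1, the immunoglobulin receptor Pigr and the chemokine Ccl28 had the same form, with at most 3.35 CPM in any TGFB2 library and means of 425, 316 and 169 CPM in untreated cells. Ctla2a shares exons with Gm49391, which had 17% of its level, and unstranded reads do not separate them.

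Interaction calls among pathway genes were mostly on the lower side. Of the 34 targets of SMAD2 and SMAD3, 11 had a smaller BMP4 effect with TGFB2 and 0 a larger. Of the 24 targets of SMAD1 and SMAD5, 2 had a smaller effect and 0 a larger. Over all genes, 1.24% were lower in the interaction and 0.588% higher. The 2 targets of SMAD1 and SMAD5 were Smad6 (2.80 ± 0.25 without TGFB2 and 0.96 ± 0.24 with it) and Smad7 (1.58 ± 0.11 and 0.53 ± 0.11). Smad7 averaged 46.4 CPM in untreated cells and 138 CPM with BMP4 alone, and its TGFB2 libraries, at 128 to 157 CPM, were already at the level of BMP4 alone. Pmepa1 rose with BMP4 alone by 1.46 ± 0.12 and had -0.01 ± 0.12 on top of TGFB2 (interaction adjusted p = 0.0056). Fn1, fibronectin, rose with BMP4 alone by 2.20 ± 0.37, from 341 to 1640 CPM in the mean, and had -0.19 ± 0.35 on top of TGFB2. For Id2 the effect was larger with TGFB2 than without, but the difference did not pass (0.65, adjusted p = 0.066).

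**Figure D4:**
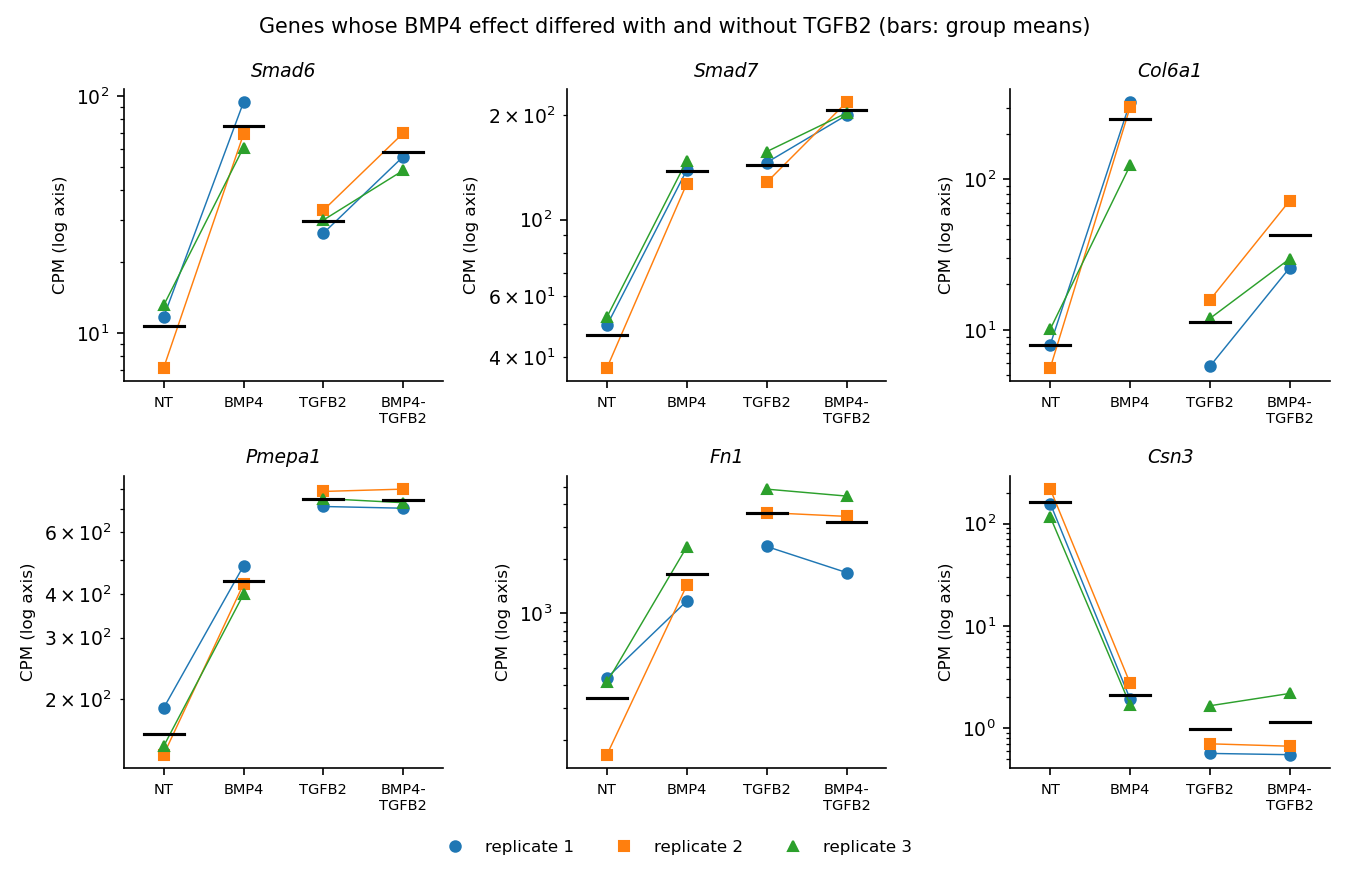
CPM (log axis) in the 4 groups of 6 genes whose BMP4 effect differed with and without TGFB2. Points are libraries, lines join same-numbered libraries, bars are group means; Pmepa1, Fn1 and Csn3 change steeply from NT to BMP4 and little from TGFB2 to BMP4-TGFB2, while Smad6, Smad7 and Col6a1 keep a smaller rise.

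Named by the rule of the 12-library fit but applied to the 3-pair fit after its values were seen, the 12 largest rises at a mean log2 CPM of 2 or more were of Selp, Col6a1, Col6a2, Krt16, Atoh8, Hey1, Tspan18, Krt6a, Prl2c3, Adamts15, Pglyrp3 and Efna3. Selp, which encodes the adhesion receptor P-selectin, was 0.615, 1.76 and 2.58 CPM with TGFB2 and 7.62, 13.9 and 23.6 CPM with both (3.23 ± 0.182, adjusted p = 8.5e-05). The lowest library with both ligands was above the highest with TGFB2, yet the gene missed the threshold in the 12-library fit (adjusted p = 0.073). Prl2c3, of the prolactin-related family and with near-identical copies in the genome that the counting may not separate, was 90.6, 89.8 and 109 CPM with TGFB2 and 253, 280 and 241 with both (1.42 ± 0.0899). Efna3, an ephrin ligand, was 11.2, 13.7 and 9.81 CPM with TGFB2 and 32.7, 35.9 and 22.2 CPM with both (1.37 ± 0.109, adjusted p = 0.0003). The secreted protease Adamts15 and the peptidoglycan recognition protein gene Pglyrp3 rose by 1.40 ± 0.18 and 1.38 ± 0.152, with groups that overlapped.

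At the same limit of expression, the 12 largest falls in the 3-pair fit were of Cbr2, Fam107a, Muc20, Hbb-y, Slc15a2, Iqgap2, Slc28a3, Hbb-bh1, Lbp, Rassf4, Csdc2 and Hba-a2. Cbr2, a carbonyl reductase, was 47.7, 158 and 52.4 CPM with TGFB2 and 14.6, 29.3 and 18.8 with both (-1.89 ± 0.16, adjusted p = 0.00039, and 0.073 in the 12-library fit). It was 1070 CPM in the mean of untreated cells. Iqgap2, a scaffold protein that binds actin, was 11, 23.9 and 16.4 CPM with TGFB2 and 3.92, 8.26 and 4.81 CPM with both (-1.60 ± 0.135), and it had no detectable effect of BMP4 alone (0.20 ± 0.25). The difference between the backgrounds passed for Iqgap2 (-1.82, adjusted p = 0.039). Lbp, the lipopolysaccharide binding protein, went from 48.2, 84.8 and 33.4 to 15.7, 28.7 and 13.5 CPM (-1.51 ± 0.0901), and Slc28a3, a nucleoside transporter, from 18.4, 62.1 and 23.8 to 7.56, 17.1 and 8.31 CPM (-1.57 ± 0.126). Both had fallen with BMP4 alone, by 1.73 and 1.88 on the log2 scale.

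Collagen genes divided. Of 30 tested chains 0 passed in the 12-library fit, where the median was -0.247. In the 3-pair fit 3 rose and 3 fell (1.75% and 1.76% of all genes). In all 3 pairs 16 chains were lower, as were 18.8% of all genes. Without pair 1, 2 of the rises and 1 of the falls were kept. Collagen VI forms beaded microfilaments around cells. Its chain Col6a1 was 5.72, 15.8 and 11.9 CPM with TGFB2 and 25.9, 72.4 and 29.7 CPM with both (1.89 ± 0.161, adjusted p = 0.00039), and Col6a2 was 1.54, 5.87 and 4.16 CPM with TGFB2 and 7.45, 24.6 and 8.83 with both (1.79 ± 0.225, adjusted p = 0.0029). Both stayed past the threshold without pair 1 (adjusted p = 0.0047 and 0.0219). The third chain tested, Col6a3, was at most 2.39 CPM in the 6 libraries and showed no detectable difference (0.24 ± 0.433). The levels of Col6a1 with both ligands were well under the mean of 251 CPM with BMP4 alone, and its interaction was -3.03 (adjusted p = 0.0496).

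The third chain that rose was Col12a1, and those that fell were Col8a1, Col9a2 and Col11a1. Col8a1, a short-chain network collagen, was 98.6, 124 and 263 CPM with TGFB2 and 35, 68.8 and 171 CPM with both (-0.98 ± 0.136, adjusted p = 0.0049). It was lower in every pair although the groups overlapped. The fibril-associated Col9a2 went from 6.01, 5.42 and 3.99 to 3.59, 2.36 and 2.06 CPM (-0.96 ± 0.211, adjusted p = 0.042), without overlap. Col1a1 and Col1a2, the chains of collagen I, were lower in all 3 pairs and did not pass.

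Among 38 other matrix proteins 1, Spp1, fell and 0 rose in the 12-library fit. In the 3-pair fit 4 rose and 6 fell (1.75% and 1.76% of all genes), of which 2 and 3 were kept without pair 1. The rises included Lama3 and Lamb3, chains of laminins of epithelial basement membranes. Lama3 was 304, 274 and 300 CPM with TGFB2 and 398, 428 and 425 CPM with both (0.51 ± 0.066, adjusted p = 0.00351), and Lamb3 rose by 0.26 ± 0.0592. Itgb4, the integrin beta chain of hemidesmosomes, was 1720, 1660 and 1790 CPM with TGFB2 and 2190, 2410 and 2250 CPM with both (0.40 ± 0.0604, adjusted p = 0.0074). The libraries of Lama3 and Itgb4 did not overlap between groups, whereas those of Lamb3 did. Fbln2, a basement membrane fibulin, also rose (0.79 ± 0.0773, adjusted p = 0.00085). The falls were Spp1, Fbln5, Postn, Matn4, Ccn4 and Ccn5. Fbln5, which organises elastic fibres, was 9.79, 5.9 and 3.74 CPM with TGFB2 and 3.78, 1.58 and 1.31 CPM with both (-1.58 ± 0.209, adjusted p = 0.0038). Postn, periostin, went from 3.62, 4.26 and 3.77 to 1.32, 1.44 and 1.73 CPM (-1.38 ± 0.259, adjusted p = 0.0222). Fn1 was 2340, 3600 and 4850 CPM with TGFB2 and 1680, 3430 and 4440 CPM with both and did not pass (adjusted p = 0.17).

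Of 28 metalloproteinases, plasminogen activators and inhibitors, 4 rose and 1 fell in the 3-pair fit (1.75% and 1.76% of all genes). In the 12-library fit 0 passed. Mmp13, a collagenase, was 14.4, 18.2 and 66 CPM with TGFB2 and 29, 51.6 and 105 CPM with both (1.04 ± 0.133, adjusted p = 0.0032). Mmp11, stromelysin-3, rose by 0.55 ± 0.0814, with exons shared with Chchd10, whose level was 34.7% of its own. The tissue inhibitors Timp2 and Timp3 rose by 0.42 ± 0.0598 and 0.45 ± 0.0913, and Adamts4, an aggrecanase, fell by 0.44 on the log2 scale. Without pair 1, 1 of the 4 rises, that of Mmp13, and 0 of 1 falls were kept.

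Of 36 epithelial junction and identity genes 19 were higher in all 3 pairs and 6 lower, against 18.3% and 18.8% of all genes. The median was 0.0993, and 4 rose and 0 fell in the 3-pair fit (1.75% and 1.76% of all genes), of which 0 were called without pair 1. Dsp, the desmosomal plaque protein desmoplakin, was 482, 497 and 550 CPM with TGFB2 and 620, 836 and 657 CPM with both (0.45 ± 0.0876, adjusted p = 0.025). Ovol1 and Grhl1, transcription factors of epithelial differentiation, rose by 0.82 ± 0.173 and 0.81 ± 0.17, and Pkp1, a desmosomal plakophilin, by 0.44 ± 0.0807. Cdh1, E-cadherin, was lower in all 3 pairs, at 469, 512 and 488 CPM with TGFB2 and 420, 449 and 407 CPM with both, and did not pass (-0.21 ± 0.0595, adjusted p = 0.10). Vim, vimentin, fell in the 3-pair fit from 80.5, 118 and 420 to 28.2, 67.3 and 334 CPM (-0.86 ± 0.171, adjusted p = 0.027), but not without pair 1 (adjusted p = 0.103). Its replicate 3 libraries were high in both groups. Of 25 mesenchymal genes Vim was the only fall and Ncam1, a neural adhesion molecule, the only rise in that fit.

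Of 17 basal and myoepithelial genes tested in the 3-pair fit 3 rose and 1 fell (1.75% and 1.76% of all genes). The rises were Krt14, Krt6a and Itgb4, of which 1 was kept without pair 1. The fall was Mylk, a myosin light chain kinase. Krt14, a basal keratin, was 497, 569 and 334 CPM with TGFB2 and 919, 942 and 431 CPM with both (0.66 ± 0.0917, adjusted p = 0.0049, and 0.071 without pair 1). Krt16, a keratin outside that list, was 13.7, 7.37 and 3.71 CPM with TGFB2 and 44.3, 26.6 and 10.7 CPM with both (1.70 ± 0.116). Krt6a was 6.67, 3.94 and 1.25 CPM with TGFB2 and 18.4, 10.3 and 4.06 CPM with both (adjusted p = 0.0012), and it has close paralogs that may share reads. The keratins Krt5 and Krt17 of the same list and Krt7, Krt8, Krt18 and Krt19 of the epithelial list did not pass. Krt14, Krt16 and Krt6a were higher in each pair, but replicate 3 with both ligands lay below the highest TGFB2 library. Among 21 luminal and milk genes 1, Gata3, rose and 4 fell in the 3-pair fit (1.75% and 1.76% of all genes). Without pair 1, 2 of the falls were kept. The 4 that fell were Elf5, Lcn2, Cd14 and the prolactin receptor Prlr. Elf5, the alveolar ETS factor, went from 11.9, 17.2 and 10.8 to 7.06, 10.3 and 5.27 CPM (-0.84 ± 0.136).

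Of 42 interferon response genes tested, 0 were higher and 24 were lower in all 3 pairs, against 18.3% and 18.8% of all genes, and the median was -0.314. Of the 40 tested in the 3-pair fit 0 rose and 6 fell (1.75% and 1.76% of all genes), with 2 of those falls kept without pair 1. The mean over the list differed by -0.556, 0.0388 and -0.372 in pairs 1 to 3. In pair 2 the mean was thus slightly higher, although the 24 genes above were lower in that pair too. Oas3, an RNA sensor of the oligoadenylate synthetase family, was 18.8, 15.1 and 21.8 CPM with TGFB2 and 5.99, 8.02 and 9.62 CPM with both (-1.25 ± 0.155, adjusted p = 0.0028). Bst2, the antiviral protein tetherin, was 94.3, 66 and 90.8 CPM with TGFB2 and 58.1, 44.9 and 57.5 CPM with both (-0.64 ± 0.0684, adjusted p = 0.0013). The groups were apart in both genes. Oas1a, Oasl2, Dtx3l and Rtp4 were the other falls. With BMP4 alone, 34 of the 42 fell and 1 rose (6.78% and 8.6% of all genes), with a median of -1.20. In the interaction 0 of the 42 passed. Of 19 genes of MHC class I presentation 9 were lower in all 3 pairs and 0 passed in either fit.

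Among 31 cytokines, chemokines and acute-phase genes tested in the 3-pair fit 3 rose and 6 fell (1.75% and 1.76% of all genes). Of these, 1 rise and 3 falls were kept without pair 1. Lcn2, the siderophore-binding lipocalin, was 3030, 3230 and 1530 CPM with TGFB2 and 1780, 1680 and 751 CPM with both (-0.91 ± 0.0658, adjusted p = 0.00018, and 0.073 in the 12-library fit). Icam1, an adhesion molecule for leukocytes, went from 13.6, 38 and 26.9 to 5.33, 21.9 and 14.3 CPM (-1.01 ± 0.124). Csf3, Csf1, Tnfaip2 and complement C3 also fell. Tslp, an epithelial alarmin cytokine, rose from 0.331, 0.192 and 0.139 CPM to 3.64, 2 and 0.883 CPM (3.19 ± 0.464, adjusted p = 0.0063), without overlap and from a low level. Ptgs2, cyclooxygenase 2, rose by 0.68 ± 0.101 and Nfkbia, an inhibitor of NF-kB, by 0.29 ± 0.0647.

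Of 44 cell cycle genes tested, 36 were lower with both ligands in all 3 pairs and 2 higher, against 18.8% and 18.3% of all genes. The median was -0.34, and 0 rose and 4 fell in the 3-pair fit (1.75% and 1.76% of all genes). The 4 were Tyms, Mcm3, Uhrf1 and Bub1. None of the 4 was called without pair 1, and 0 of 44 passed in the 12-library fit. The mean over the list differed by -0.586, -0.464 and -0.101 in pairs 1 to 3. Relative to the mean of the TGFB2 libraries, the replicate 1 libraries stood apart, at a mean log2 difference of -1.29 with TGFB2 and -1.87 with both. The other 4 libraries stood at 0.202 to 0.666 on that scale. Mki67, a proliferation marker, was 18.1, 103 and 158 CPM with TGFB2 and 9.41, 89.7 and 143 CPM with both and did not pass (adjusted p = 0.18). The spread between replicates exceeded the difference between treatments in this gene.

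The CDK inhibitors Cdkn1a and Cdkn1b, which encode p21 and p27, did not pass. Cdkn1a was 774, 548 and 476 CPM with TGFB2 and 758, 561 and 524 with both, and Cdkn1b was 57.4, 44.8 and 50.5 CPM with TGFB2 and 61.9, 55.9 and 50.6 CPM with both. Of 25 CDK inhibitor and quiescence genes 0 rose and 2 fell in the 3-pair fit (1.75% and 1.76% of all genes). These were Cdkn2c (p18) and Gas6, the latter also without pair 1. Of 31 genes associated with dormancy 1 rose, Gadd45b, and 2 fell, Bhlhe41 and Gas6, in that fit (1.75% and 1.76% of all genes). Bhlhe41, a circadian repressor named in dormancy studies, was 199, 246 and 217 CPM with TGFB2 and 89.5, 102 and 98.9 CPM with both (-1.19 ± 0.0656, adjusted p = 8.5e-05, and 0.0024 without pair 1). Its groups were far apart, yet in the 12-library fit its adjusted p was 0.098. Gas6, the ligand of the TAM receptors, fell from 44.9, 95.1 and 30.3 to 27.2, 43.3 and 20.2 CPM (-0.83 ± 0.109). Nr2f1, an orphan nuclear receptor, was 6.39, 5.39 and 5.27 CPM with TGFB2 and 2.18, 3.87 and 4.35 CPM with both (-0.76 ± 0.261, adjusted p = 0.18); it shares exons with A830082K12Rik, at 16.5% of its level. Sox9 was 295, 214 and 257 CPM with TGFB2 and 266, 251 and 252 CPM with both.

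**Figure D5:**
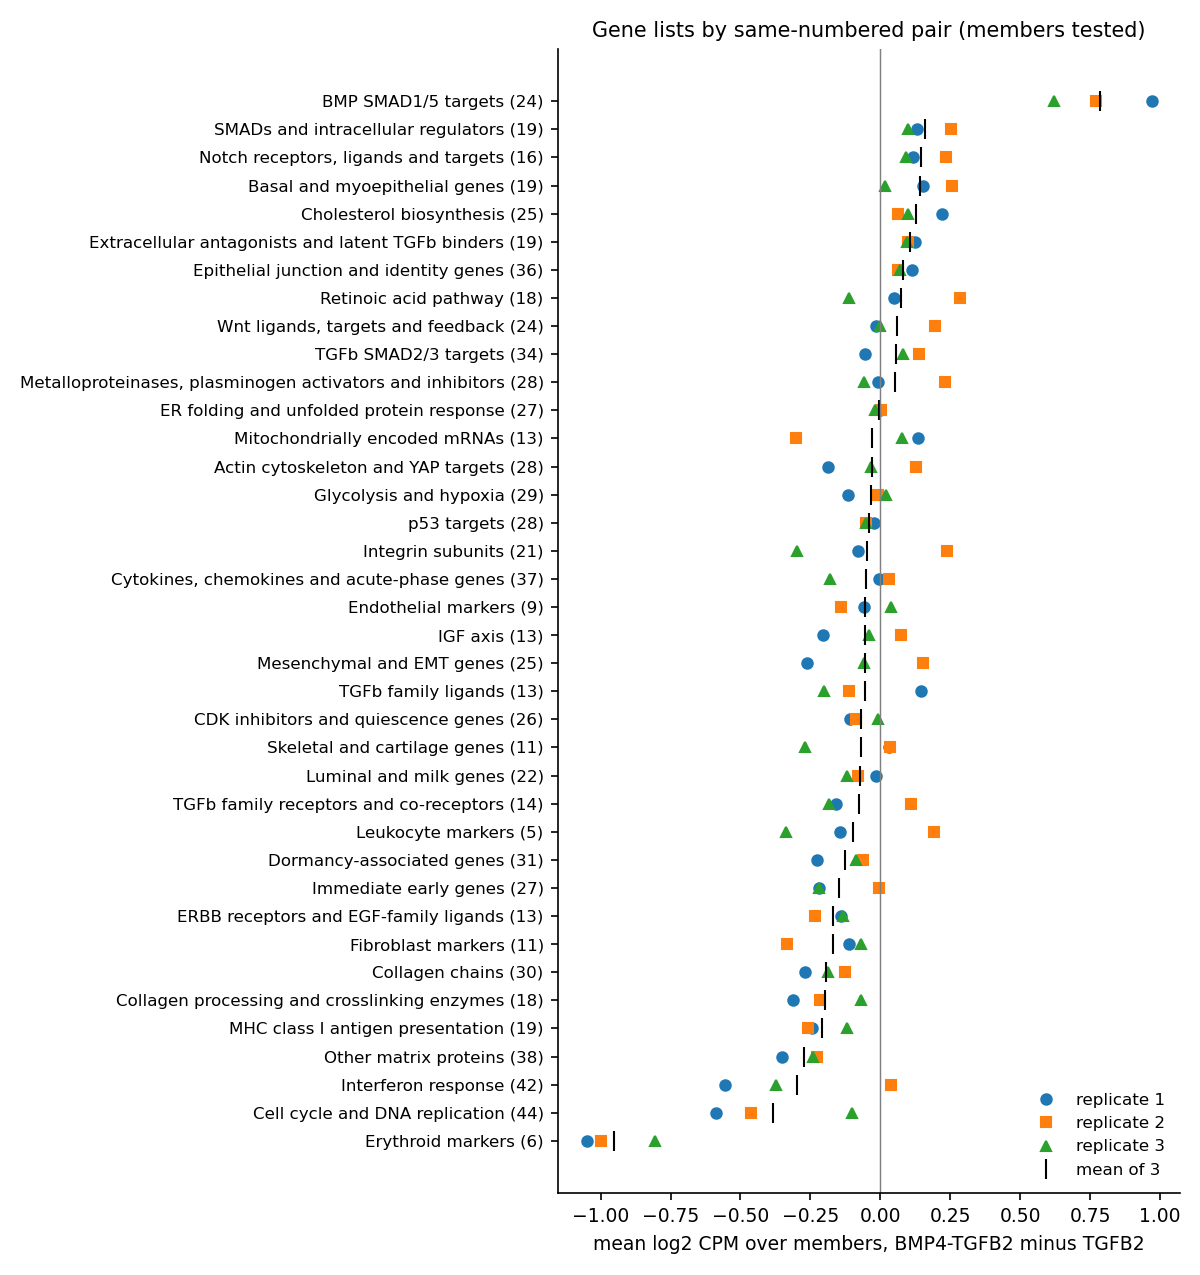
Difference in mean log2 CPM over the tested members of each gene list, BMP4-TGFB2 minus TGFB2 (x axis), in each same-numbered pair (points) with the mean of 3 (bars). Targets of SMAD1 and SMAD5 lie highest, with 0.621 to 0.969, and the cell cycle list and the 6 erythroid markers lie lowest.

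Wnt genes changed in both directions. Of 24 tested, Wnt11 rose in the 12-library fit. Of the 23 tested in the 3-pair fit 5 rose and 2 fell (1.75% and 1.76% of all genes). Without pair 1, 4 of the rises and 1 of the falls were kept. Wnt5b, a non-canonical ligand, was 42.6, 62.6 and 40.8 CPM with TGFB2 and 14.1, 28.2 and 20.7 CPM with both (-1.24 ± 0.115, adjusted p = 0.0006), and its groups did not overlap. Wnt4, the ligand of mammary side branching, went from 29.9, 56.7 and 11.9 to 66.6, 112 and 21.5 CPM (adjusted p = 0.000391). It was higher in each pair, and its replicates were as far apart as the treatments. Wnt7a rose by 0.68 ± 0.08, and the feedback inhibitors Axin2 and Notum by 0.65 ± 0.144 and 0.77 ± 0.121, while Wnt10a fell by 0.46 on the log2 scale. Of 18 genes of the retinoic acid pathway 0 rose and 2 fell in the 3-pair fit (1.75% and 1.76% of all genes), both also without pair 1. Tgm2, a transglutaminase, was 1 of these 2 falls, and it has exons in common with Rprd1b, at 20.6% of its level.

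Of 27 immediate early and growth factor feedback genes 1 rose and 3 fell in the 3-pair fit (1.75% and 1.76% of all genes). Without pair 1, 2 of the falls were kept. Egr2, a zinc finger factor, was 3.97, 8.34 and 7.23 CPM with TGFB2 and 1.32, 2.15 and 1.08 CPM with both (-2.08 ± 0.262, adjusted p = 0.0029). Spry1, an inhibitor of receptor tyrosine kinase signalling, was 24, 14.1 and 10.3 CPM with TGFB2 and 9.13, 5.24 and 4.22 CPM with both (-1.38 ± 0.13, adjusted p = 0.00065). Etv5, an ETS factor downstream of such receptors, fell by 0.69 on the log2 scale. The groups did not overlap in these 3 genes. Fosl2, an AP-1 subunit, rose from 184, 171 and 164 to 262, 282 and 216 CPM (0.54 ± 0.0723, adjusted p = 0.004).

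Markers of other cell types were low and mostly level. Summed over the listed leukocyte markers, the TGFB2 libraries held 8.91 to 12 CPM and those with both ligands 10 to 12.5 CPM, with Cd8a at 0. Endothelial markers summed to 31.7 to 40.5 and 28.1 to 48 CPM, fibroblast markers to 152 to 289 and 120 to 275 CPM, and adipocyte markers, with Retn at 0, to 7 to 9.04 and 7.03 to 8.21 CPM. No member of these lists passed in either fit. The 8 erythroid markers differed, with summed levels of 15.1 to 31.5 CPM with TGFB2 and 6.54 to 12.9 CPM with both. Of the 6 tested, 5 were lower in all 3 pairs, as were 18.8% of all genes. Hba-a1 and Hba-a2, near-identical alpha-globin genes whose reads may not be separable, fell in the 3-pair fit by 1.13 and 1.42 on the log2 scale, and neither passed without pair 1 (adjusted p = 0.0718 and 0.0544). The embryonic beta-globins Hbb-y and Hbb-bh1, which are not on the erythroid list, fell with them. Hbb-y went from 21.7, 21.4 and 39.9 to 5.41, 11.5 and 10.1 CPM (-1.63 ± 0.2). Hbb-bh1 went from 11, 12.9 and 22 to 3.45, 5.73 and 6.74 CPM (-1.52 ± 0.154). Untreated cells had 4.68 and 2.88 CPM in the mean of these 2 genes. The source of globin transcripts was not tested, and in bulk RNA fewer cells of a kind and less RNA per cell cannot be told apart.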

How the data were processed

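Poly(A) RNA was sequenced as paired ends, per the labels' protocols. The submitters' processing notes name the build GRCm38.p6 and the tools Salmon 1.2.1, STAR 2.7.5b and bcl2fastq 2.17, without their roles. The files used were the authors' table of Salmon estimated counts by gene and their deposited TPM table, which is scaled for length and depth. Rounding the estimated counts to whole numbers moved their sum by 0.000361%. Totals were 28543128 to 42167771 per library, unstranded and in the same sequencing batch per the deposited fields. No 2 libraries agreed within sampling noise (lowest chi-square per degree of freedom 63.9).

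Of 54347 genes 15319 passed filterByExpr (minimum count 10) and held 99.95% of the counts. The test was the quasi-likelihood F test of edgeR 4.0.16 (R 4.3.3) with TMM, group and replicate block over all 12 libraries, Benjamini-Hochberg adjusted over all genes tested. The fit of only the 6 libraries compared was a check on this test and not the test itself. It left 2 residual degrees of freedom, against 6 with all 12 libraries, and gave 500 calls against 6. Its values are printed alongside, and results given for the 3-pair fit alone rest on that check. A fold change carries its SE after ±, a level its SD (n = 3). CPM uses TMM-scaled library sizes. The replicate numbers come from the labels. Deviations of same-numbered TGFB2 and BMP4-TGFB2 libraries from their group means correlated at 0.505, 0.229 and 0.419, so the numbers were taken to pair the libraries. Those of same-numbered NT and TGFB2 libraries correlated at 0.304, 0.0805 and 0.233, while the fit of all 12 libraries shares its replicate block over all groups. DESeq2 1.42.0 and limma 3.58.1 served as alternatives.

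Named genes were the 12 largest rises and falls past the threshold with a mean log2 CPM of 2 or more and the same sign in all 3 pairs, the 5 largest per direction in the interaction, up to 4 members per list with the smallest p, and a set of ligand, receptor and target genes. The same rule applied to the fit of 6 libraries, and list members named outside it, were chosen after their values were seen. The comparison, the lists and the rule were chosen with earlier results of these data known. Predicted and clone-named genes were skipped. Positions are from GENCODE M21, with 183 of 192 named identifiers found in the same version. Promoters are from RefSeq, taking the first listed start. Scripts were tested on simulated counts. A few genes counted in the lists are not reported here by name.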

Additional observations from a re-analysis of the deposited data

Results flagged for a closer look

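For 35 of the genes named, the effect of BMP4 with TGFB2 differed from that without it by a test of the difference itself, the interaction of the 12-library fit at an adjusted p under 0.05, a set of calls that moved with the block and the libraries as given above. Values are log2, with TGFB2 minus without. Milk, secretory and transport genes and Gas7, all lowered by BMP4 alone, were on the positive side. Csn3 stood at 6.47, Csn1s1 at 4.93, Pigr at 4.79, Ccl28 at 3.24, Gas7 at 2.83 and Ltf, lactoferrin, at 2.56. Sqle (0.751) and Herpud1 (0.66), of sterol synthesis and protein quality control, were also positive.

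On the negative side, matrix and matricellular genes had Ccn5 at -4.65, Col14a1 at -4.40, Col6a1 at -3.03, Sdc3 at -3.03, Col12a1 at -2.64, Fn1 at -2.39, Fbln2 at -2.35, Igfbp7 at -1.97, Ccn1 at -1.79, Col1a1 at -1.38 and Col8a1 at -1.30. Igfbp7 shares exons with Polr2b, at 14.2% of its level. Signalling genes had Wnt11 at -2.71, Nbl1 at -2.41, Bmp4 at -2.40, Smad6 at -1.84, Pmepa1 at -1.47, Jag1 at -1.33, Smad7 at -1.04 and Skil at -0.946. Proteases and their inhibitors had Ctla2a at -3.04, Mmp11 at -1.85 and Htra1 at -1.32. The others were the transporter Slc16a12 at -3.28, Iqgap2 at -1.82, Gadd45b at -1.29, Ankrd1 at -1.20 and Cdkn1a at -0.782. In no gene of the list was a cause tested.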

How the results depend on the processing

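The 6 calls of BMP4-TGFB2 against TGFB2 became 0 with no replicate block (516 genes at an unadjusted p under 0.05), 10 with size factors of DESeq2, 136 with no filter on low counts, 181 with the Wald test of DESeq2 and 500 with the 6 libraries alone, and ran from 2 to 5 with 1 library left out. Leaving out every replicate 1 library gave 6, but 0 of them rose and 6 fell. That fit kept 2 of the 6 genes called, Muc20 and Slc15a2. Added after seeing the data, a block of its own with and without TGFB2 gave 117, and in the 6 libraries DESeq2 gave 756, limma voom 581 and fits without pair 1, 2 or 3 gave 143, 354 and 733. The count thus moved with the block, the filter, the tool and the libraries fitted. With no replicate block BMP4 against NT had 833 calls, not 2356, and the interaction 24, not 280. With 1 library left out these ran from 1199 to 2342 and from 61 to 447. The interaction had 611 calls with no filter, 846 with DESeq2 and 145 without replicate 1. Over 192 named genes and 18 alternatives, 0 called genes changed direction, and 30 gene results, all of the 6 genes called, lost the threshold. Depth limits genes near 1 CPM such as Nog and Tslp. The cause of these differences was not tested.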

Other observations

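Among 29 genes of glycolysis and hypoxia, 2 rose and 2 fell in the 3-pair fit (1.75% and 1.76% of all genes). Slc2a1, the glucose transporter GLUT1, fell from 335, 238 and 249 CPM with TGFB2 to 271, 190 and 193 CPM with both ligands (-0.34 ± 0.0594, adjusted p = 0.017). Pfkfb3, which makes the activator of phosphofructokinase, fell with it (-0.50 ± 0.097, adjusted p = 0.025). Pkm, pyruvate kinase, rose by 0.27 ± 0.0525 and the stress gene Ddit4 by 0.34 ± 0.064. None of the 4 was called without pair 1.

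Of 25 cholesterol synthesis genes 11 were higher and 2 lower in all 3 pairs (18.3% and 18.8% of all genes). In the 3-pair fit 2 rose (1.75% of all genes). Of these, Sqle, squalene epoxidase, was 48.4, 108 and 93.4 CPM with TGFB2 and 71.4, 144 and 110 CPM with both (0.40 ± 0.0772, adjusted p = 0.025). With BMP4 alone, 5 of the 25 fell and 0 rose (6.78% and 8.6% of all genes). Of 27 genes of the unfolded protein response and 13 mitochondrially encoded mRNAs, 0 passed in either fit.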
